A study of Mus musculus with 24 samples.

Results

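Macrophages and the blood monocytes that give rise to some of them are recognised in a tissue's RNA by a small set of genes, of which 37 are described here in the gastrocnemius (a calf muscle) and the heart of dystrophic and control mice. A member was read from the probe sets that the array's annotation gives exactly 1 gene symbol, and where a gene had several, from the probe set with the highest mean log2 intensity in the tissue. By this rule 36 of the 37 members, out of 18193 genes in all, had a probe set, and the same one was the brightest in both tissues for all 36. Lilrb4a, an inhibitory receptor, shares its probe set with a neighbouring family gene and was not measured. Itgam stayed dim in gastrocnemius and Itgam, Marco and Siglec1 stayed dim in heart, which left 35 members tested in gastrocnemius and 33 in heart.

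The 24 Affymetrix arrays came from 12 male mice aged 2 months, 3 of each of 4 genotypes, and each animal gave both tissues. WT and Cmah KO mice carry the strain label C57BL/6J, and mdx and Cmah KO mdx mice carry C57BL6/10J, so every comparison of dystrophin loss also crosses the strain labels, and strain and dystrophin cannot be told apart. The mdx mouse carries a mutation that removes dystrophin, the protein that links the muscle fibre's skeleton to its membrane. Cmah encodes the enzyme that makes the sialic acid Neu5Gc, which humans lack, and Cmah KO mdx mice lack both functions throughout the body. Replicate numbers are those of the labels within a tissue and do not name the same animal in the heart as in the gastrocnemius. Values are log2 intensities, changes are log2 differences with the standard error of limma's fit, and the threshold is a Benjamini-Hochberg adjusted p below 0.05 over all probe sets tested in that tissue.

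Macrophages depend on the transcription factor PU.1, encoded by Spi1, and on the growth factor receptor Csf1r. In injured muscle, monocytes carrying the chemokine receptor Ccr2 enter from the blood, clear dead fibres through Fc, scavenger and complement receptors, and mature into macrophages that take part in repair. Muscle and heart also hold resident macrophages without injury, which carry receptors such as Cd163, Mrc1 and Folr2. The arrays were made from whole tissue, so a higher level from more macrophages and a higher level from more RNA per macrophage cannot be told apart.

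Because Spi1 is a member, the promoters of the members were searched for the purine-rich sequence that PU.1 is known to bind, in windows of 300 bases (250 before and 50 after the gene's start) from RefSeq on GRCm38.p6. The letters searched were GGAAGT and, on the other strand, ACTTCC. They stood in the windows of 14 of the 26 members that had a window (53.8%), against 26.5% of all 27025 genes with a window. The longer AGGAAGT, which contains the first, stood in 8 members (30.8%) against 10.7% of all genes, and GAGGAAGT in 2 members (7.69%) against 3.69%. These matches are a description of letters, not of binding. Of the 7 members that passed the threshold for dystrophin loss below, 6 had a window, and the match stood in those of Fcgr1, Itgax and Ms4a7. The 150 bases before the start are shown for these and for Mpeg1, which passed the threshold with no match in its window, with the matched letters in capitals. Itgax holds 2 matches, which begin 121 and 41 bases before the start, Fcgr1 holds 1 that begins 61 bases before it and Ms4a7 holds 1 that begins 15 bases before it. Ms4a7 has another annotated start, whose window held no match. They are Fcgr1 (chr3:96293970-96294119, minus strand), Itgax (chr7:128129400-128129549, plus strand), Ms4a7 (chr19:11336147-11336296, minus strand) and Mpeg1 (chr19:12460620-12460769, plus strand), all GRCm38.p6, written 5′ to 3′ on the gene's strand.
Fcgr1: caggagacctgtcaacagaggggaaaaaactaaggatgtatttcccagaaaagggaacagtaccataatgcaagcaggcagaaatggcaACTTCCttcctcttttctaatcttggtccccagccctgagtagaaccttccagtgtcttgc
Itgax: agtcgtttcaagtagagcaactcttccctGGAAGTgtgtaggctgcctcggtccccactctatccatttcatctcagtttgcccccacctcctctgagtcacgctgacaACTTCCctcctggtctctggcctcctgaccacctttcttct
Ms4a7: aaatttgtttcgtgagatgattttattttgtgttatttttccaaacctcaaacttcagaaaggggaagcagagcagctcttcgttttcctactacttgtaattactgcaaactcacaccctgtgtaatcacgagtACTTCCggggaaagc
Mpeg1: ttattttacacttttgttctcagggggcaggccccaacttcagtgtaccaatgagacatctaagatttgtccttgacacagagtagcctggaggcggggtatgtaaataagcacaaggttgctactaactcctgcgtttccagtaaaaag

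Some arrays stood apart before any comparison. In gastrocnemius, WT replicate 1 had a mean level of the members of 8.76, against 7.27 and 7.06 in the other WT arrays. The same array had the highest mean level of the T and NK cell markers (8.17, against 4.31 to 6.19 in the other gastrocnemius arrays) and of the B cell markers (10.33, against 5.57 to 7.83). The gastrocnemius arrays least like the others were WT replicate 3 and Cmah KO mdx replicate 1, with mean correlations of 0.928 and 0.946 with the other gastrocnemius arrays. The mean of the cardiomyocyte markers was 9.23 in WT replicate 3, against 5.84 and 5.66 in the other WT arrays, and 8.30 in Cmah KO mdx replicate 1, against 6.54 and 6.27; it was highest, at 10.02, in Cmah KO replicate 1. In heart, Cmah KO replicate 3 and Cmah KO mdx replicate 2 had Gapdh signals 4.29 and 4.43 log2 higher at the 3′ end than at the 5′ end, a measure of RNA quality, against 0.44 to 1.60 in the other heart arrays. Their mean correlations with the other heart arrays were 0.543 and 0.837, against 0.909 to 0.925. As a check of the labels, Dmd fell by 1.88 ± 0.22 in dystrophin-deficient gastrocnemius (adjusted p = 0.00474), and in heart the change was -0.92 ± 0.37, short of the threshold. Skeletal muscle fibre markers summed to between 16.18 and 16.54 (log2) in gastrocnemius and to between 9.13 and 14.43 in heart. Cardiomyocyte markers summed to between 12.34 and 13.57 in gastrocnemius and to between 15.11 and 16.17 in heart.

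**Figure D1:**
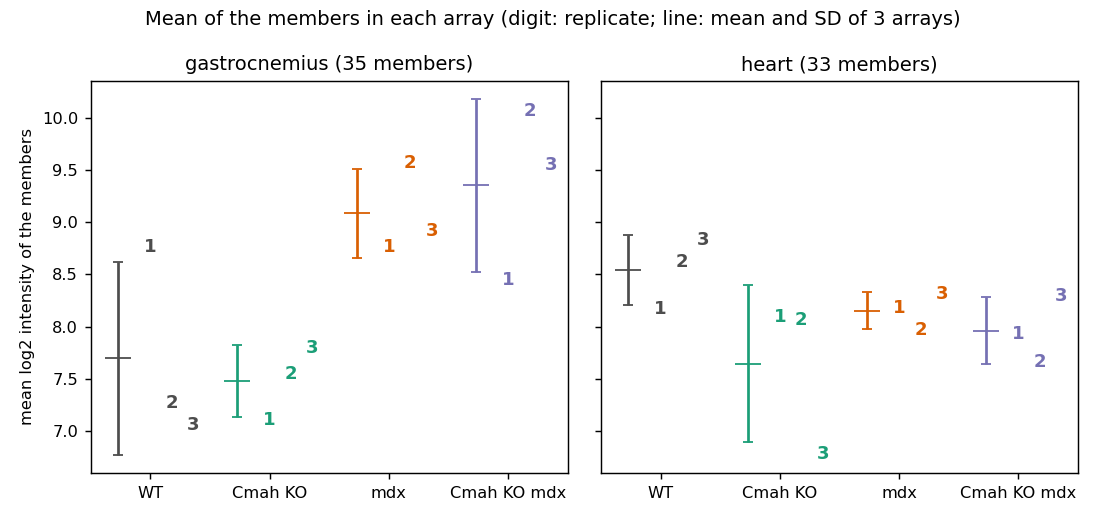
Mean log2 intensity of the tested members (y axis) in each array, by genotype (x axis), for gastrocnemius on the left and heart on the right. Each digit is the replicate number of 1 array, and the line and bar give the mean and SD of 3 arrays; the dystrophin-deficient gastrocnemius arrays lie between 8.44 and 10.07, WT replicate 1 lies among them at 8.76, and heart Cmah KO replicate 3 is the lowest array at 6.78.

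Over the members, the mean level in gastrocnemius was 7.70 ± 0.93 in WT, 7.48 ± 0.35 in Cmah KO, 9.08 ± 0.42 in mdx and 9.35 ± 0.83 in Cmah KO mdx (SD, n = 3 arrays each). With mdx and Cmah KO mdx set against WT and Cmah KO, 34 of the 35 tested members were higher, with a median change of 1.58, where the median of all tested probe sets was -0.01 and 48.81% of them were higher. The exception was Marco. Of the 35 members, 7 passed the threshold (Ccr2, Itgax, Fcgr1, Fcer1g, Tyrobp, Mpeg1 and Ms4a7), all higher, against 0.857% of all 29518 tested probe sets in either direction and 0.725% in the higher direction. These 7 rose by 1.81 to 3.39 log2, or 3.50-fold to 10.51-fold. At an unadjusted p below 0.05 there were 30 members, against 10.1% of all probe sets. In 9 members every dystrophin-deficient array lay above every dystrophin-positive one, which held for 1.2% of all probe sets: Ccr2, Itgax, Fcer1g, Tyrobp, Mpeg1 and Ms4a7 of the 7, and also Tlr2, C1qb and Cd68.

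**Figure D2:**
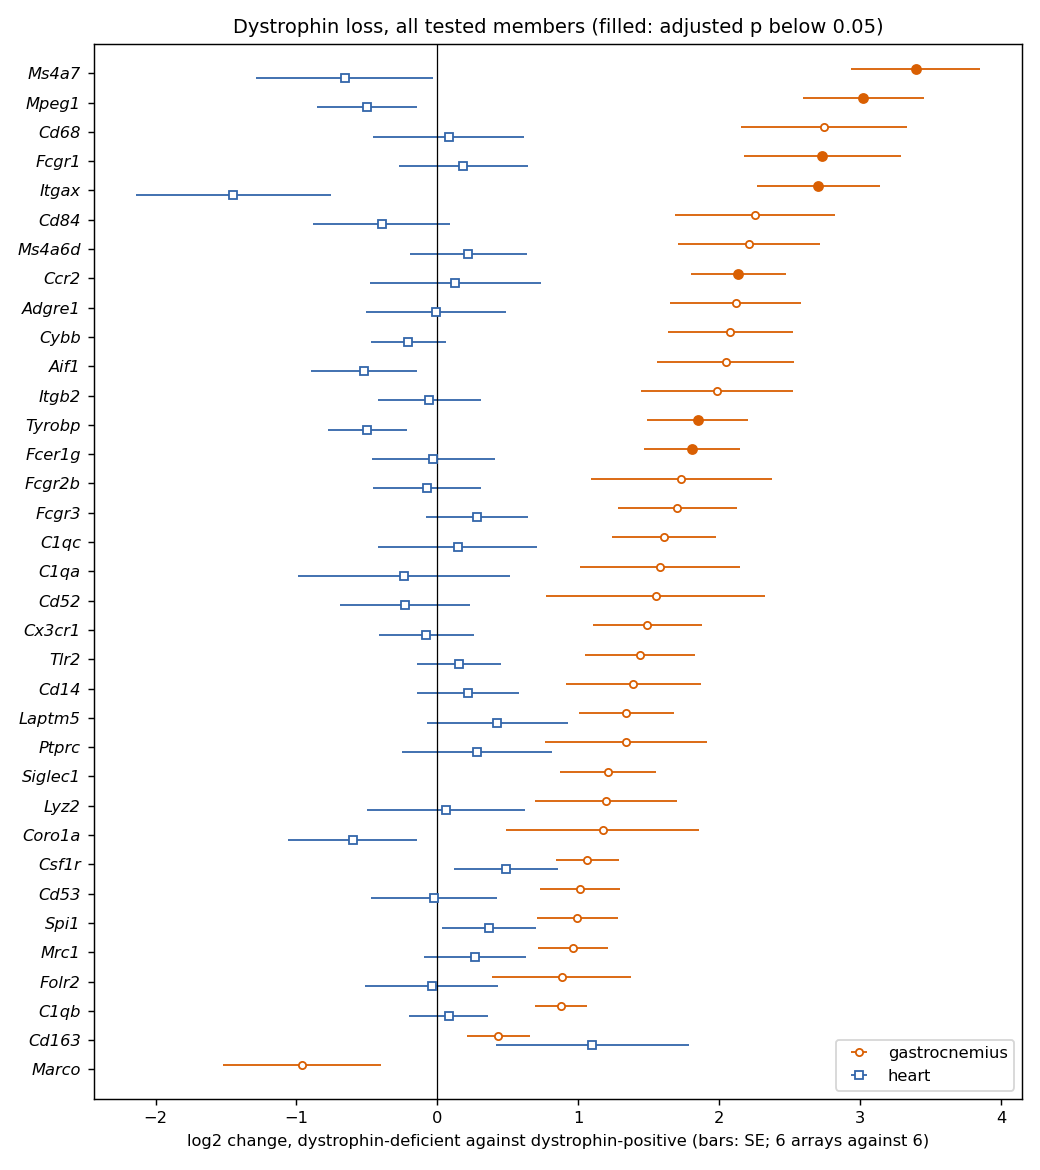
Log2 change of each tested member with dystrophin loss (x axis, both Cmah genotypes averaged, 6 arrays against 6, bars are standard errors), ordered by the change in gastrocnemius. Filled circles are the 7 members past the threshold in gastrocnemius; the heart changes (squares) scatter around 0 with none filled, from -1.45 for Itgax to 1.10 for Cd163, and Marco is the only member below 0 in gastrocnemius.

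Spi1, the lineage's transcription factor, stood at 6.11, 5.75 and 5.36 in the 3 WT arrays and at 4.83, 5.24 and 5.66 in Cmah KO. It stood at 5.74, 6.69 and 6.02 in mdx and at 6.02, 7.19 and 7.25 in Cmah KO mdx. The pooled groups overlap, and the change of 0.99 ± 0.29 missed the threshold (adjusted p = 0.167).

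Among the growth factor and chemokine receptors, Ccr2 rose. Ccr2, which draws monocytes out of the blood, stood at 8.34, 6.64 and 6.93 in WT and at 7.23, 7.13 and 6.05 in Cmah KO. In mdx it stood at 8.92, 9.61 and 8.70, and in Cmah KO mdx at 9.19, 9.67 and 9.04. The 6 dystrophin-deficient arrays lie above all 6 others, of which WT replicate 1 is the highest, and the rise was 2.14 ± 0.34 (adjusted p = 0.0160). The call was lost without mdx replicate 2 (adjusted p = 0.0559) or without Cmah KO mdx replicate 2 (adjusted p = 0.0592). Csf1r, the receptor for macrophage colony-stimulating factor, differed by 1.07 ± 0.22 (adjusted p = 0.0511). Its probe set of second rank differed by 1.34 ± 0.27 and passed the threshold (adjusted p = 0.0466). That probe set carries a suffix that marks possible hybridisation with other transcripts. The third Csf1r probe set differed by 1.01 ± 0.37 and missed the threshold (adjusted p = 0.319). Cx3cr1, the fractalkine receptor of patrolling monocytes and many resident macrophages, differed by 1.49 ± 0.39 (adjusted p = 0.121).

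Of the leukocyte integrins, Itgax rose. This gene, the alpha chain CD11c found on dendritic cells and some macrophages, stood at 6.47, 4.72 and 4.47 in WT and at 4.31, 5.20 and 4.56 in Cmah KO. It reached 7.33, 8.30 and 6.50 in mdx and 7.02, 8.76 and 8.05 in Cmah KO mdx. The groups do not overlap, although the lowest mdx array and the highest WT array, replicate 1, are nearly level, and the rise was 2.71 ± 0.44 (adjusted p = 0.0194). The call was lost without any 1 of WT replicate 2, Cmah KO replicate 3, mdx replicate 2, Cmah KO mdx replicate 2 and Cmah KO mdx replicate 3, with adjusted p from 0.0568 to 0.0623. Itgb2, the beta chain that these integrins share, differed by 1.98 ± 0.54 (adjusted p = 0.143). Itgam, the alpha chain CD11b, lay between 2.94 and 5.40 in all 12 arrays, with every group mean below the cutoff for dim probe sets, so its level is not known from this probe set.

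The group of Fc receptors and signalling adaptors held 3 of the 7 calls. Fcgr1, the high-affinity receptor for IgG, stood at 7.01, 5.16 and 5.31 in WT and at 5.58, 5.96 and 6.15 in Cmah KO. In mdx it stood at 7.37, 9.21 and 8.73 and in Cmah KO mdx at 6.77, 9.97 and 9.50. Only WT replicate 1 and Cmah KO mdx replicate 1 cross, and the rise was 2.73 ± 0.56 (adjusted p = 0.0471).

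Fcer1g, the signalling gamma chain of these receptors, stood at 9.45, 7.80 and 8.25 in WT and at 8.32, 8.53 and 8.55 in Cmah KO. It stood at 9.96, 10.63 and 9.85 in mdx and at 9.49, 11.14 and 10.68 in Cmah KO mdx. The groups do not overlap, with WT replicate 1 just below Cmah KO mdx replicate 1, and the rise was 1.81 ± 0.34 (adjusted p = 0.0370). Tyrobp, the adaptor DAP12 that serves Trem2 and other activating receptors, stood at 9.73, 8.76 and 8.52 in WT and at 7.98, 9.14 and 8.62 in Cmah KO. Its mdx arrays were at 10.10, 11.04 and 10.01 and its Cmah KO mdx arrays at 9.93, 11.64 and 11.11, again with no overlap, and the rise was 1.85 ± 0.36 (adjusted p = 0.0395). For Fcgr1, Fcer1g and Tyrobp alike, the call was lost when any array other than WT replicate 1 or Cmah KO mdx replicate 1 was left out, 10 arrays of 12. The adjusted p then ran from 0.0543 to 0.150 for Fcgr1, from 0.0538 to 0.118 for Fcer1g and from 0.0554 to 0.123 for Tyrobp. Fcgr3, another activating IgG receptor, differed by 1.70 ± 0.43 (adjusted p = 0.107), and Fcgr2b, the inhibitory one, by 1.73 ± 0.64 (adjusted p = 0.338).

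No scavenger, lectin or folate receptor passed the threshold, and the median change of this group was the lowest, at 0.88. Mrc1, the mannose receptor, stood at 9.75, 8.96 and 9.74 in WT and at 9.07, 8.91 and 9.47 in Cmah KO. It stood at 10.31, 10.30 and 10.30 in mdx and at 9.59, 10.88 and 10.30 in Cmah KO mdx. The groups overlap through Cmah KO mdx replicate 1 alone, and the change was 0.96 ± 0.25 (adjusted p = 0.121). Cd163, the receptor for haemoglobin bound to haptoglobin, differed by 0.43 ± 0.22 (adjusted p = 0.589). Folr2, a folate receptor of resident macrophages, differed by 0.88 ± 0.49 (adjusted p = 0.648). Siglec1, a sialic acid binding lectin, differed by 1.21 ± 0.34 (adjusted p = 0.160), with WT and Cmah KO means below the cutoff for dim probe sets. Marco, a scavenger receptor for bacteria and particles, was the one member lower, by a change of -0.96 ± 0.56 (adjusted p = 0.675). Its highest arrays were WT replicate 1 at 7.25 and Cmah KO replicate 3 at 6.33, and its mdx and Cmah KO mdx means lay below the cutoff.

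Both pattern recognition receptors were short of the threshold. Tlr2, which recognises bacterial lipoproteins, stood at 6.22, 5.68 and 3.86 in WT and at 5.39, 5.87 and 6.18 in Cmah KO. It stood at 6.67, 7.39 and 6.51 in mdx and at 6.41, 7.28 and 7.57 in Cmah KO mdx. The groups do not overlap, and the change was 1.44 ± 0.39 (adjusted p = 0.142). Cd14, which hands lipopolysaccharide to Tlr4, differed by 1.39 ± 0.48 (adjusted p = 0.282).

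The 3 chains of C1q, which opens the classical complement pathway and is made largely by macrophages, were all higher, none past the threshold. C1qb stood at 11.88, 11.13 and 11.60 in WT and at 11.42, 11.61 and 11.26 in Cmah KO. Its mdx arrays were at 12.28, 12.21 and 12.14 and its Cmah KO mdx arrays at 12.39, 12.69 and 12.47. Here the groups are clearly apart and the spread is small, with a change of 0.88 ± 0.19 (adjusted p = 0.0547). Another C1qb probe set, the dimmest of 3, differed by 1.82 ± 0.34 and passed (adjusted p = 0.0373), so the size of the C1qb change depends on the probe set. C1qc differed by 1.61 ± 0.37 (adjusted p = 0.0764) and C1qa by 1.58 ± 0.57 (adjusted p = 0.313).

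Mpeg1 gave the lowest p of the lysosomal and microbe-killing proteins. Mpeg1, which encodes the pore-forming perforin-2 of phagocytes, stood at 9.12, 6.57 and 7.07 in WT and at 7.11, 6.93 and 7.78 in Cmah KO. It stood at 10.37, 10.84 and 9.52 in mdx and at 10.25, 11.35 and 10.38 in Cmah KO mdx. The groups do not overlap, and the rise was 3.02 ± 0.43, or 8.13-fold (adjusted p = 0.00920). Cybb, the catalytic subunit of the phagocyte oxidase, stood at 7.65, 5.76 and 5.18 in WT and at 5.82, 6.42 and 6.35 in Cmah KO. It stood at 7.41, 8.83 and 7.97 in mdx and at 7.60, 9.38 and 8.47 in Cmah KO mdx. Only WT replicate 1 reaches into the dystrophin-deficient range, and the change was 2.08 ± 0.45 (adjusted p = 0.0582). Another Cybb probe set differed by 2.22 ± 0.43 and passed (adjusted p = 0.0395). Cd68, a lysosomal membrane protein of macrophages, differed by 2.75 ± 0.59 (adjusted p = 0.0587), and Lyz2, which encodes lysozyme, by 1.20 ± 0.50 (adjusted p = 0.430).

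Ms4a7 had the largest change of the members. This gene, a membrane protein of the MS4A family expressed in macrophages, stood at 6.93, 6.27 and 5.55 in WT and at 5.53, 6.02 and 5.15 in Cmah KO. It reached 8.66, 10.28 and 8.44 in mdx and 8.06, 10.54 and 9.82 in Cmah KO mdx. No arrays of the pooled groups overlap, and the rise was 3.39 ± 0.46, or 10.51-fold (adjusted p = 0.00868). Mpeg1 and Ms4a7 kept their calls without any single array, where the change of Mpeg1 ran from 2.77 to 3.41 and that of Ms4a7 from 3.11 to 3.75. Adgre1, which encodes the surface receptor most used to mark mouse macrophages, differed by 2.12 ± 0.46 (adjusted p = 0.0644). Ms4a6d, of the same family as Ms4a7, differed by 2.21 ± 0.50 (adjusted p = 0.0739). Cd84, an adhesion receptor of the SLAM family, differed by 2.25 ± 0.57 (adjusted p = 0.110), and Aif1, the actin-binding protein Iba1, by 2.05 ± 0.49 (adjusted p = 0.0871).

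The 5 members that most leukocytes express had a median change of 1.34, and none passed. Laptm5, a lysosomal membrane protein of blood cells, stood at 11.67, 9.53 and 9.82 in WT and at 10.24, 10.38 and 10.16 in Cmah KO. It stood at 11.60, 11.71 and 11.22 in mdx and at 11.28, 12.14 and 11.92 in Cmah KO mdx. WT replicate 1 lies within the dystrophin-deficient range and the other 5 controls lie below it, and the change was 1.34 ± 0.34 (adjusted p = 0.111). Ptprc, the common leukocyte antigen CD45, differed by 1.34 ± 0.57 (adjusted p = 0.443), with WT replicate 1 at 10.18 above all dystrophin-deficient arrays. Cd53, a tetraspanin, differed by 1.02 ± 0.28 (adjusted p = 0.156). Cd52, a small glycoprotein of lymphocytes and monocytes, differed by 1.55 ± 0.78 (adjusted p = 0.575). Coro1a, an actin regulator of leukocytes, differed by 1.17 ± 0.69 (adjusted p = 0.675).

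**Figure D3:**
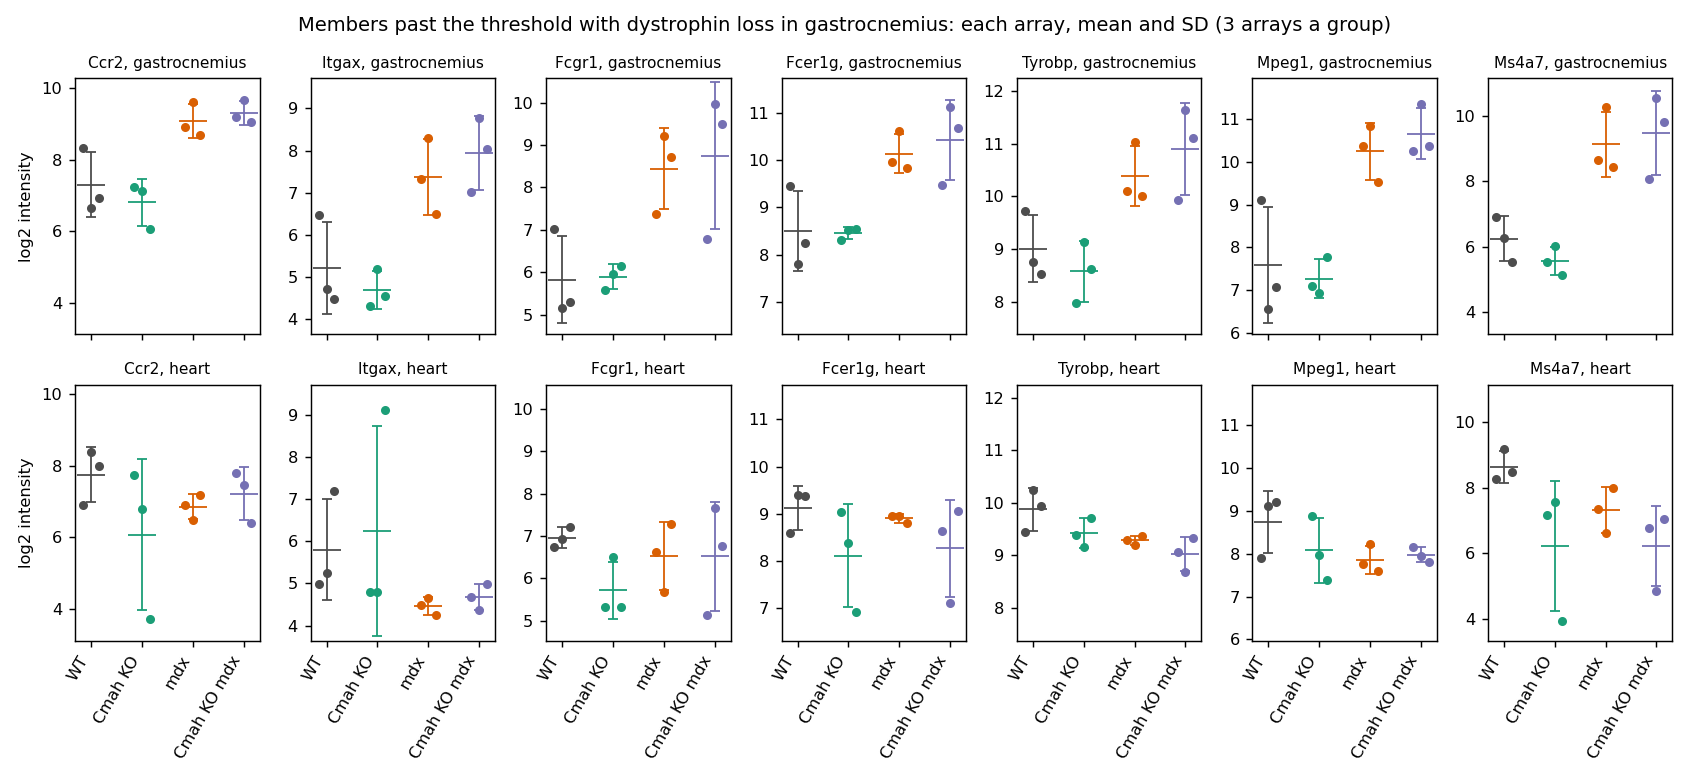
Log2 intensity (y axis) of the 7 members past the threshold in gastrocnemius, for each array by genotype (x axis), with gastrocnemius above and heart below on a shared scale for each gene. Points are arrays and the lines and bars give the mean and SD of 3; the mdx and Cmah KO mdx points lie above the others in gastrocnemius apart from 1 crossing in Fcgr1, and no such separation is seen in heart, where Cmah KO replicate 3 is far from its group for Ccr2 (3.71), Itgax (9.11) and Ms4a7 (3.93).

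The count of 7 moved with single arrays. Without WT replicate 1 the median change was 1.86 and 17 members passed, against 1.15% of all probe sets in that fit, and without Cmah KO mdx replicate 1 there were 15, against 1.33%. Leaving out any other single array gave between 2 and 5 members, and the share of all probe sets in those fits ran from 0.237% to 0.742%. The part of WT replicate 1's lymphocyte signal in these results was not tested. Other probe sets of the members, which the choice of the brightest had set aside, were higher in all 17 cases tested (10 genes), and 3 passed, those of Csf1r, C1qb and Cybb named above. For the called members, the other probe sets tested (those of Fcgr1 and Ccr2) missed the threshold: Fcgr1 differed by 1.68 ± 0.38 (adjusted p = 0.0739), and Ccr2 by 1.78 ± 0.51 and 1.40 ± 0.59 (adjusted p = 0.167 and 0.437). A further Cybb probe set differed by 1.20 ± 0.47 (adjusted p = 0.381). The brightest probe sets of Fcgr2b, Aif1, Ms4a6d, C1qb and Laptm5 carry a suffix that marks possible hybridisation with other transcripts, so their values are less certain.

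Within a genotype the members in gastrocnemius tended to move together from array to array. Over the 12 gastrocnemius arrays, each array's deviation from its group mean had a median Pearson correlation of 0.63 over all pairs of the 35 members. This describes members that share the same arrays, depth of tissue sampling included. The same value for all probe sets was not computed, so it is not shown to be particular to the members. Itgb2 followed the mean of the other members most closely (0.97) and Cd163 (0.21), Cd84 (0.24) and Siglec1 (0.28) least. In heart the median over pairs of the 33 members was 0.29, and the correlation with the mean of the others ran from -0.65 (Itgax) to 0.93 (Adgre1).

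Genes around the lineage were read beside the members, in the same comparison, where 0.857% of all tested probe sets passed the threshold in either direction. Of the macrophage growth factors and monocyte-attracting chemokines, 8 of 9 tested were higher with dystrophin loss in gastrocnemius (median 1.48) and 1 passed, Ccl8, a chemokine for monocytes, which rose by 1.48 ± 0.22 (adjusted p = 0.0106). Of the myeloid transcription factors 7 of 11 were higher (median 0.15), and Runx1, a factor of blood cell development that denervated and regenerating muscle fibres also express, rose by 1.98 ± 0.23 (adjusted p = 0.00474). All 10 tested genes of the list for signalling by Fc receptors and Tyrobp were higher (median 1.33), and 1 passed. This was Clec7a, itself a surface receptor, for fungal glucans, and not a gene downstream of Fc receptors or Tyrobp. It rose by 2.76 ± 0.39 (adjusted p = 0.00898).

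Resident and injury macrophage markers were read side by side, again where 0.857% of all tested probe sets passed in either direction. Of 9 tested resident macrophage markers 5 were higher, with a median of 0.00 and none past the threshold; F13a1, the clotting factor chain made by resident macrophages, differed by 0.67 ± 0.28 and Cd36, a fatty acid and scavenger receptor also made by endothelium and muscle, by -0.47 ± 0.21. Of 9 tested markers of infiltrating monocytes and injury macrophages 8 were higher, with a median of 2.66, and 4 passed. They were Mmp12, the macrophage elastase (4.92 ± 0.60, adjusted p = 0.00533), Gpnmb, a glycoprotein of lipid-laden phagocytes (3.22 ± 0.40, adjusted p = 0.00533), Lgals3, galectin-3 (3.07 ± 0.36, adjusted p = 0.00474), and Clec4d, a C-type lectin of myeloid cells (2.66 ± 0.45, adjusted p = 0.0233). The members Cd163, Mrc1 and Folr2, named above as receptors of resident macrophages, changed by 0.43, 0.96 and 0.88, none past the threshold. Both lists were chosen with earlier results of these data known, and the difference between them was not tested.

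Markers of other cell types were read in the same comparison, and none of those whose median change follows passed the threshold. The median change was 0.60 over 7 neutrophil markers, 0.43 over 5 mast cell markers, -0.47 over 8 T and NK cell markers, -0.16 over 3 B cell markers and -0.35 over 3 dendritic cell markers. It was 0.41 over 8 fibroblast markers, all higher, -0.05 over 7 endothelial markers and 0.02 over 8 skeletal muscle fibre markers. The summed neutrophil markers ran from 8.19 to 12.22 (log2) in the dystrophin-positive arrays and from 9.21 to 10.34 in the dystrophin-deficient ones. The T and NK cell markers ran from 7.67 to 11.60 and from 8.20 to 8.94. The median sums in dystrophin-positive and dystrophin-deficient arrays were 8.73 and 9.94 for neutrophils and 8.01 and 8.33 for T and NK cells. They were 8.98 and 9.13 for B cells and, in the other direction, 9.68 and 9.26 for dendritic cells. For cardiomyocyte markers the median sums were 12.87 and 13.44, with ranges of 12.34 to 13.34 and 13.15 to 13.57. For red blood cell markers the median sums were 7.11 and 6.92. WT replicate 1 had the highest mean of the neutrophil, T and NK cell and B cell markers, and its part in these changes was not tested. The part of neutrophils and fibroblasts in the members' changes was not tested.

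Dystrophin loss was also read separately with and without Cmah, in groups of 3 against 3. In mdx against WT, 34 of 35 members were higher with a median change of 1.43, and 0 passed in limma's test, where 0.0169% of all probe sets did. At an unadjusted p below 0.05 there were 23 members (3.6% of all probe sets), and 18 members had every mdx array above every WT array (3.54%). In Cmah KO mdx against Cmah KO, the same 34 members were higher with a median of 1.79, and 0 passed, against 0.112% of all probe sets. At an unadjusted p below 0.05 there were 25 members (7.76%), and 24 showed no overlap (7.27%).

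The change was larger without Cmah for 32 of the 35 members, the others being Tlr2, Cd14 and Siglec1. Ms4a7 differed by 2.88 ± 0.65 between mdx and WT and by 3.91 ± 0.65 between Cmah KO mdx and Cmah KO (adjusted p = 0.393 and 0.0543). Mpeg1 differed by 2.66 ± 0.61 and 3.38 ± 0.61, with the second reading at an adjusted p of 0.0665. Cd84 differed by 1.09 ± 0.80 and 3.41 ± 0.80, and Spi1 by 0.41 ± 0.40 and 1.58 ± 0.40. The difference between the readings was tested as an interaction, which no member passed (0 of 35 in limma, against 0.0% of all probe sets, and 0 at an unadjusted p below 0.05, against 1.05%). The smallest unadjusted p was 0.0631, for Spi1, whose interaction was 1.17 ± 0.57. The median interaction was 0.41, and without WT replicate 1 it was -0.04, so its sign rests on that array. Markers of other leukocytes were read in the same interaction: 7 of 7 neutrophil markers were higher (median 1.43, 2 with an unadjusted p below 0.05), as were 3 of 3 B cell markers (median 0.98) and 7 of 8 T and NK cell markers (median 0.42). Their part in the members' values was not tested.

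**Figure D4:**
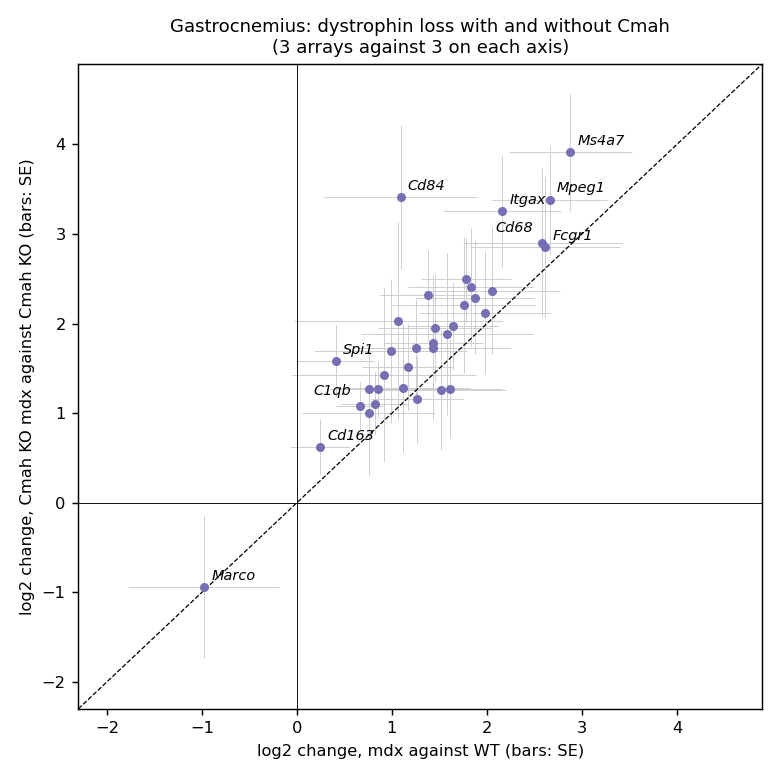
Log2 change of each tested member in gastrocnemius in mdx against WT (x axis) and in Cmah KO mdx against Cmah KO (y axis), with standard errors as bars and the line of equal change dashed. Most points (32 of 35) lie above the dashed line, Ms4a7 is farthest from 0 on both axes, and Marco is the only member below 0; no difference between the axes passed the interaction test.

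Loss of Cmah alone moved no member past the threshold in gastrocnemius. In Cmah KO against WT the median change was -0.23 with 29 of 35 members lower, and 0 passed in limma (0.0% of all probe sets), also 0 at an unadjusted p below 0.05 (1.12%). Without WT replicate 1 the median was 0.33, so this direction too rests on that array. The largest difference was that of Cd84, -1.36 ± 0.80. In Cmah KO mdx against mdx, 30 of 35 members were higher with a median of 0.27, and 0 passed (0.00339% of all probe sets), also 0 at an unadjusted p below 0.05 (0.928%). Over the leave-one-out fits that median ran from -0.04 to 0.80. The 5 members that were lower were Marco, Siglec1, Lyz2, Mrc1 and Cd163.

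In heart no member differed past the threshold in any comparison. Over the members, the mean level was 8.54 ± 0.34 in WT, 7.64 ± 0.75 in Cmah KO, 8.15 ± 0.18 in mdx and 7.96 ± 0.32 in Cmah KO mdx (SD, n = 3 arrays each). With dystrophin loss, 16 of 33 members were higher and 17 lower, with a median of -0.01, where the median of all probe sets was 0.11. The count past the threshold in limma was 0 (0.0% of all 29421 probe sets), and 0 at an unadjusted p below 0.05 (0.836%). The changes ran from -1.45 ± 0.69 for Itgax to 1.10 ± 0.68 for Cd163.

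In mdx against WT hearts, 27 of 33 members were lower, with a median of -0.29. There were 0 calls (0.0%), 0 at an unadjusted p below 0.05 (0.35%) and 5 members with every mdx array below every WT array (3.81%). These 5 were Itgax (-1.34 ± 0.98), Ms4a7 (-1.32 ± 0.89), Ms4a6d (-0.59 ± 0.58), Tyrobp (-0.59 ± 0.39) and Cd53 (-0.54 ± 0.63). In Cmah KO mdx against Cmah KO hearts the median was 0.36, with 0 calls (0.0%) and 0 at an unadjusted p below 0.05 (1.93%), and without Cmah KO replicate 3 the median was -0.12. In Cmah KO mdx against mdx the median was -0.13, that of all probe sets -0.14, with 0 calls (0.0%) and 0 at an unadjusted p below 0.05 (1.58%). The interaction had a median of 0.67, which became 0.18 without Cmah KO replicate 3, and gave 0 calls (0.0%) and 0 at an unadjusted p below 0.05 (0.486%).

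Cmah KO hearts were lower than WT hearts for 31 of 33 members, with a median of -1.02 against -0.37 over all probe sets. No member passed (0 calls, 0.0%), 5 had an unadjusted p below 0.05 (0.85%) and 7 had every Cmah KO array below every WT array (3.62%). Ms4a7 had the largest difference, at 8.26, 9.18 and 8.48 in WT and at 7.17, 7.57 and 3.93 in Cmah KO, a change of -2.42 ± 0.89 (adjusted p = 0.686). Fcgr3 differed by -1.31 ± 0.51, Lyz2 by -1.76 ± 0.79, Cd14 by -1.17 ± 0.51 and Ms4a6d by -1.29 ± 0.58. Cmah KO replicate 3 is the array with the high Gapdh difference, and without it the median was -0.45. The same array had the lowest mean of the fibroblast markers (7.85, against 9.42 to 10.92 in the other hearts) and of the endothelial markers (6.69, against 7.27 to 9.66). The B cell markers were higher in all 3 Cmah KO hearts (means of 6.16, 7.30 and 6.86) than in the WT hearts (4.64 to 4.83). With array weights and with the Gapdh difference as a covariate the median difference was also smaller, as the last section gives. Beyond these fits and the value without that array, the part of RNA quality in the difference was not tested. The part of these cell types was not tested.

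Heart and gastrocnemius of the same animals were compared in 1 fit of the 24 arrays, in which the animal was a random block. In WT mice 28 of 35 members were higher in heart, with a median of 0.60, and 1 passed, against 6.75% of all 31070 probe sets. This was Ms4a7, 2.39 ± 0.72 higher in heart (adjusted p = 0.0486), and the call was lost without any 1 of the 3 WT animals, with adjusted p from 0.106 to 0.460. The 35 include Marco and Siglec1, which were too dim in heart to be tested there and entered through gastrocnemius. In mdx mice the order was the other way: 34 of 35 members were lower in heart, with a median of -1.08, and 3 passed, against 6.72% of all probe sets. Over the 33 members tested in both tissues 32 were lower, with the same median. The 3 that passed were Mpeg1 (-2.39 ± 0.50, adjusted p = 0.00364), Itgax (-2.92 ± 0.77, adjusted p = 0.0202) and Ccr2 (-2.22 ± 0.63, adjusted p = 0.0331). The calls for Ccr2 and Itgax were lost without any 1 of the 3 mdx animals (adjusted p from 0.139 to 0.236 and from 0.0656 to 0.306) and under quantile normalization (0.0902 and 0.0961). That of Mpeg1 was lost without the animal of gastrocnemius mdx replicate 2 (adjusted p = 0.122). Neither share of members called was far from that of all probe sets.

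The change with dystrophin loss, which also crosses the strain labels, differed between the tissues for 5 members. As heart minus gastrocnemius, 33 of 35 members had a negative difference, with a median of -1.77 where the median of all probe sets was 0.11, and over the 33 tested in both tissues 32 did. The 5 that passed were all negative, against 0.48% of all probe sets in either direction and 0.444% in the negative direction.

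For Mpeg1 the difference was -3.52 ± 0.50 (adjusted p = 0.00139). In heart it stood at 7.90, 9.12 and 9.21 in WT, at 8.89, 7.96 and 7.39 in Cmah KO, at 7.77, 8.22 and 7.59 in mdx and at 8.16, 7.94 and 7.82 in Cmah KO mdx. For Tyrobp it was -2.34 ± 0.41 (adjusted p = 0.00660), with heart levels of 9.44, 10.24 and 9.94 in WT, 9.39, 9.17 and 9.72 in Cmah KO, 9.29, 9.20 and 9.37 in mdx and 9.06, 8.69 and 9.32 in Cmah KO mdx. In both genes the heart arrays of mdx and Cmah KO mdx lie within or below the control range.

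For Ms4a7 the difference was -4.05 ± 0.72 (adjusted p = 0.00799), and its heart levels were 7.34, 6.62 and 8.00 in mdx and 6.78, 4.84 and 7.05 in Cmah KO mdx, beside the WT and Cmah KO values above. For Cybb it was -2.29 ± 0.45 (adjusted p = 0.0200), with heart levels of 6.88, 6.87 and 7.48 in WT, 6.45, 6.79 and 6.90 in Cmah KO, 6.99, 6.65 and 6.91 in mdx and 6.31, 6.61 and 6.65 in Cmah KO mdx. For Itgax it was -4.15 ± 0.77 (adjusted p = 0.0105). Its heart levels were 4.98, 5.24 and 7.18 in WT, 4.80, 4.79 and 9.11 in Cmah KO, 4.49, 4.66 and 4.24 in mdx and 4.69, 4.37 and 4.98 in Cmah KO mdx. The dystrophin-deficient heart means of Itgax lie below the cutoff for dim probe sets, and the array at 9.11 is Cmah KO replicate 3.

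The calls for Mpeg1, Tyrobp and Ms4a7 held without any single animal, with the highest adjusted p at 0.0152, 0.0426 and 0.0494, although that of Ms4a7 was lost under quantile normalization (adjusted p = 0.0510). That of Itgax was lost without the animal of gastrocnemius mdx replicate 2 (adjusted p = 0.0704). That of Cybb was lost without any 1 of 6 animals, with adjusted p from 0.0552 to 0.111: those of gastrocnemius WT replicates 2 and 3, Cmah KO replicate 1, mdx replicate 2 and Cmah KO mdx replicates 2 and 3. It was also lost with no block (adjusted p = 0.0844). Without the 4 arrays least like the others, which include both hearts with high Gapdh differences, 15 members passed, against 1.45% of all probe sets, and all 5 genes were among them (adjusted p from 0.000176 to 0.0145).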

How the data were processed

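Total RNA of 2 tissues from 12 mice (24 samples, 25 ng of RNA each, amplified) was hybridised to 1-colour Affymetrix arrays. The deposited values are intensity values per probe set on a linear scale, as their range shows. The submitters' processing notes name GCOS and RMA with no version, and which of them gave these values is not given in the sources used here. Array medians lie between 41.9 and 50.7, and precision is limited by 3 arrays a group. The log2 of 45037 non-control probe sets was taken with no further normalization. Dim probe sets were left out: testing in a tissue required 3 or more of its 12 arrays to exceed the 40th percentile of that tissue's values (log2 4.66 in gastrocnemius and 4.78 in heart). The 4 group means of a tissue were estimated by limma's lmFit, and eBayes gave moderated two-sided tests (limma 3.58.1, R 4.3.3); comparisons of tissues used animal as a random block with a consensus correlation of 0.217. The fits were tested on simulated data.

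The 37 members and all gene lists were chosen with earlier results of these data known. Values in every array are given for members past the threshold in any comparison and for the member with the lowest p of each role group. Other alternatives tried were no filter, quantile normalization, an offset of 16, an intensity trend, array weights, fewer groups, both tissues in 1 fit, the replicate block, a Gapdh covariate, the second brightest probe set and leaving out arrays. Same-numbered gastrocnemius arrays of Cmah KO mdx and mdx deviated together in all 3 pairs (correlations of 0.61, 0.17 and 0.40), which comes from the data and not from the labels. Single pairs of other comparisons reached 0.60 (gastrocnemius Cmah KO mdx and Cmah KO, replicate 1) and 0.64 (heart mdx and WT, replicate 2). Others were negative, down to -0.44 (gastrocnemius Cmah KO and WT, replicate 1). In gastrocnemius Cmah KO mdx against mdx no member passed with or without the replicate block.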

Additional observations from a re-analysis of the deposited data

Results flagged for a closer look

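The change with dystrophin loss differed between heart and gastrocnemius for 5 members by a test of that difference (limma, 24 arrays, animal as a random block, both Cmah genotypes averaged). As heart minus gastrocnemius on the log2 scale the difference was -4.15 for Itgax, -2.34 for Tyrobp, -2.29 for Cybb, -3.52 for Mpeg1 and -4.05 for Ms4a7. In gastrocnemius alone, Itgax, Tyrobp, Mpeg1 and Ms4a7 rose past the threshold and Cybb differed by 2.08 (adjusted p = 0.0582); in heart alone the changes of the 5 genes were -1.45, -0.50, -0.21, -0.50 and -0.66, none past the threshold.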

How the results depend on the processing

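For dystrophin loss in gastrocnemius, the 7 members past the threshold became 11 under quantile normalization, 23 with array weights, 23 with the Gapdh covariate, 16 with both tissues in the fit, 11 without the 2 arrays least like the others and 2 of 10 when each member's second brightest probe set was read. The share of all probe sets was 0.857% at first, 0.915% under quantile normalization, 2.91% with array weights, 2.53% with the covariate, 0.871% with both tissues and 0.691% without the 2 arrays. Leaving out 1 array gave 2 to 17, with 0.237% to 1.33% of all probe sets. Mpeg1 and Ms4a7 passed under all of these that apply to them. Fcgr1 was lost with no filter (adjusted p = 0.0650) and Tyrobp likewise (0.0542), and Ccr2 without the 2 arrays (0.0501). In Cmah KO mdx against Cmah KO the 0 members became 1 under quantile normalization, 1 with an intensity trend and 17 with array weights. They became 5 with the Gapdh covariate, 5 without the 2 arrays, 3 with both tissues in the fit and 0 to 2 without 1 array. The share of all probe sets was 0.112% at first, 0.125% under quantile normalization, 0.129% with the trend and 1.83% with array weights. It was 0.518% with the covariate, 0.349% without the 2 arrays, 0.241% with both tissues and from 0.00678% to 0.237% without 1 array. The median interaction in gastrocnemius, 0.41, was 1.29 without the 2 arrays. With the replicate block, 5 members passed for dystrophin loss in gastrocnemius, against 0.6% of all probe sets (Fcgr1 and Fcer1g were lost, adjusted p = 0.0683 each). The same block gave 1 member in Cmah KO mdx against Cmah KO, where 0.115% of all probe sets passed. No other count of members changed, and by the labels same-numbered samples of different genotypes share only a number.

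In heart, array weights moved the median of Cmah KO mdx against Cmah KO from 0.36 to -0.15, that of Cmah KO against WT from -1.02 to -0.29 and the interaction from 0.67 to -0.058. The Gapdh covariate gave -0.46 for Cmah KO against WT and leaving out the 2 arrays -0.45. Without 1 array these medians ran from -0.12 to 0.72, from -1.24 to -0.45 and from 0.18 to 0.92. Between tissues, the 1 member in WT became 0 with no filter, under quantile normalization, with animal as a fixed block, with no block and without 1 animal (0 to 0), and 2 without the 4 arrays least like the others. The share of all probe sets in WT was 6.75% at first, 13.8% without the 4 arrays and from 2.75% to 3.9% without 1 animal. It was 4.27% with no filter, 5.74% under quantile normalization, 5.51% with the fixed block and 4.48% with no block. The 3 members in mdx became 5 with a fixed block, 1 with no block, 16 without the 4 arrays and 0 to 1 without 1 animal. In mdx the share of all probe sets was 6.72% at first, 5.68% with the fixed block and 4.77% with no block. It was 16.7% without the 4 arrays and from 3.07% to 3.65% without 1 animal. The 5 members whose dystrophin change differed between tissues became 4 with no block (Cybb was lost), 15 without the 4 arrays and 3 to 9 without 1 animal, and stayed 5 under quantile normalization, where Ms4a7 was lost (adjusted p = 0.0510). For that difference the share of all probe sets was 0.48% at first, 0.216% with no block and 0.341% under quantile normalization. It was 1.45% without the 4 arrays and from 0.196% to 0.721% without 1 animal. The causes of these shifts were not tested.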
